A study of Mus musculus with 18 samples.

Results

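The cerebellar RNA of mice that lack *Gtpbp1* was set against that of mice that lack *Gtpbp2*, to find the genes, gene classes and isoforms by which the mutants differ and to measure how alike they are. The libraries were taken by the genotype and assay in their titles, 3 RNA libraries for each mutant, which is 6 of the 18 libraries of the series. The remaining libraries, 3 of B6J RNA and 9 of ribosome footprints, serve only as a reference. All mice were 3 weeks old and of the C57BL/6J (B6J) strain, and both sexes were used. The mutant lines differ in origin. The *Gtpbp2* line carries nmf205, a null point mutation induced with ENU. In the *Gtpbp1* line a PGK-Neo cassette stands where exon 4 and some of exon 3 were. That line began on a mixed background and reached B6J through over 10 generations of crosses. B6J mice, the controls included, carry a mutation of the tRNA gene n-Tr20, so both mutants lack a GTPase on the same tRNA background. Poly(A) RNA was made into libraries with a kit that does not mark the strand and read as pairs, and the RNA libraries are all labelled as batch 1.

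GTPBP1 and GTPBP2 are related GTPases that act on ribosomes that have stopped on an mRNA. n-Tr20 encodes an arginine tRNA that is abundant in the brain, and its loss leaves ribosomes paused at AGA codons, which these GTPases help to resolve. Paused ribosomes activate the kinase GCN2 and, through ATF4, the genes of the integrated stress response, and neurons of the cerebellum degenerate when either GTPase is missing in this strain.

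The RNA libraries held 44243134, 49294194 and 37794598 estimated counts in the *Gtpbp1* mutants and 46027009, 50878852 and 51979679 in the *Gtpbp2* mutants, against 49090501, 50301391 and 52114400 in B6J. Gene levels are given as CPM, counts scaled to the normalized size of each library, always in the order of replicates 1, 2 and 3. The markers of the cerebellum were present in all 6 mutant libraries. The 16 markers of granule neurons summed to 3293, 3255 and 3739 TPM, a unit that corrects for transcript length, in the *Gtpbp1* mutants and 3462, 3732 and 3194 in the *Gtpbp2* mutants. The 13 markers of Purkinje cells summed to 8572, 7194 and 8874 and 7597, 7780 and 6513 TPM. By contrast, 15 markers of other brain regions together reached no more than 87.6 TPM in a mutant library. The Y-linked gene *Ddx3y* stood at 119, 128 and 0.548 CPM in the *Gtpbp1* mutants and at 0.448, 0.249 and 0.225 in the *Gtpbp2* mutants. Replicates 1 and 2 of the *Gtpbp1* mutants were therefore male, while the third and all *Gtpbp2* mutants were female, so sex was not balanced between the genotypes. With sex as a covariate, the difference between the mutants is that of *Gtpbp1* replicate 3 alone against the *Gtpbp2* mutants. All values given below for that fit thus rest on a single *Gtpbp1* library.

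The mutants were close to each other, and few genes set them apart. Of 25190 genes tested, 15 (0.0595%) passed edgeR's quasi-likelihood test (Benjamini-Hochberg adjusted p no higher than 0.05), and 899 (3.57%) had an unadjusted p under 0.05, 398 of them higher and 501 lower in the *Gtpbp1* mutants. For 16137 genes (64.1%) the 95% interval of the log2 fold change lay within 2-fold in either direction, here called bounded. For 9053 genes it did not, and for 30 of these it lay wholly beyond 2-fold. What could be bounded depended on the level of the gene. In 10 equal groups ordered by level, 0% were bounded in group 1, the lowest, 83.8% in group 5, and between 94.6% and 99.3% in groups 6 to 10, which start at 4.71 CPM. Without *Gtpbp1* replicate 1 the count of genes that passed was 9 in place of 15.

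Distances between single libraries gave the same picture. Over 16278 genes with a mean of at least 1 CPM, the median absolute log2 difference between a *Gtpbp1* and a *Gtpbp2* library was between 0.11 and 0.21 in the 9 pairs. It was between 0.13 and 0.17 among the *Gtpbp1* libraries and between 0.11 and 0.18 among the *Gtpbp2* libraries, so pairs across the mutants were nearly as close as pairs of the same genotype. Between a *Gtpbp1* and a B6J library it was between 0.23 and 0.27, and between a *Gtpbp2* and a B6J library between 0.21 and 0.26. Against B6J, 3398 of 24577 genes (13.8%) passed in the *Gtpbp1* mutants and 2146 of 24859 (8.63%) in the *Gtpbp2* mutants, in comparisons that share their B6J libraries. Among the genes tested in all 3 comparisons, 3633 passed against B6J in at least 1 mutant. Of these, 3327 (91.6%) were bounded within 2-fold between the mutants, 300 (8.26%) had an unadjusted p under 0.05, where 3.57% of all genes did, and 14 passed, so nearly all of the 15 genes are in this set. The libraries of the mutants did not overlap for 489 of them (13.5%), against 8.94% of all genes tested. Their median absolute log2 fold change between the mutants was 0.11, against 0.13 over all genes tested. These 3633 genes were picked with the same mutant libraries, and a gene in which 1 mutant stood apart was more likely to be picked. Their larger shares of small p and of libraries without overlap are thus no independent result.

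The stress response was one of the states the mutants held in common. *Slc7a3*, a transporter of cationic amino acids, stood at 131, 149.97 and 167 CPM in the *Gtpbp1* mutants, at 122, 172 and 163 in the *Gtpbp2* mutants and at 5.95, 6.28 and 4.67 in B6J. *Trib3*, a pseudokinase induced by ATF4, stood at 27.3, 24.4 and 20.2, at 18.2, 21.4 and 21.5 and at 0.384, 0.626 and 0.934 CPM. Both genes lay far above B6J in each of the 6 mutant libraries, and the mutants overlapped. *Atf4* itself stood at 308, 313 and 346 CPM in the *Gtpbp1* mutants and 277, 336 and 312 in the *Gtpbp2* mutants, against 148, 181 and 189.9 in B6J. *Asns*, which encodes asparagine synthetase, stood at 271, 305 and 334 and 215, 308 and 285, against 66.3, 71.7 and 68.1 in B6J. In these genes, too, every mutant library was above every B6J library and no mutant stood above the other. Of 12 named stress genes none passed between the mutants in edgeR's test (smallest unadjusted p 0.0896), all 12 were bounded within 2-fold, with log2 fold changes from -0.072 to 0.23, and 11 passed against B6J in both mutants. The exception, *Ddit4*, an inhibitor of mTORC1, passed in neither (adjusted p 0.0572 and 0.0851).

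The wider lists of this response gave like values. The 34 targets of ATF4 and the integrated stress response summed to 2483, 2527 and 2847 TPM in the *Gtpbp1* mutants and 2174, 2735 and 2478 in the *Gtpbp2* mutants, against 1067, 1149 and 1098 in B6J. Every mutant sum lay far above every B6J sum, and the mutant sums overlapped. None of the 34 had an unadjusted p under 0.05 between the mutants, 24 were higher and 10 lower in the *Gtpbp1* mutants, and their median log2 fold change was 0.063, where that of all genes tested was -0.00099. This lean rests on single libraries. Without *Gtpbp2* replicate 1, 11 of the 34 were higher (median -0.038), without *Gtpbp1* replicate 3 the median was -0.023 and without *Gtpbp2* replicate 2 0.18, while with sex as a covariate it was 0.20 and in 4 of the 34 the unadjusted p was under 0.05. Among the 15 kinases and regulators of the response (median 0.020), the 19 enzymes of serine synthesis and one-carbon metabolism (0.037) and the 21 genes of the unfolded protein response (0.052), none had an unadjusted p under 0.05. The sign of these medians was not stable either, with -0.022 for the first list without *Gtpbp1* replicate 3 and -0.026 and -0.028 for the others without *Gtpbp2* replicate 1. Of the 20 cytosolic aminoacyl-tRNA synthetases, which load tRNAs, 18 were higher in the *Gtpbp1* mutants, with a median of 0.10, none with an unadjusted p under 0.05. Without *Gtpbp2* replicate 1, 13 of the 20 were higher and the median was 0.023, while the median was 0.064 without *Gtpbp1* replicate 3 and 0.18 without *Gtpbp2* replicate 2. Among 24 amino acid transporters (median 0.031) the glutamate transporter gene *Slc1a1* had the smallest p, with 42.3, 42.7 and 38.1 CPM in the *Gtpbp1* mutants and 56.9, 44.4 and 55.96 in the *Gtpbp2* mutants (log2 fold change -0.35, unadjusted p 0.00581), and *Slc43a2*, a transporter of large neutral amino acids, was the other of 2 with an unadjusted p under 0.05. No transporter passed, and the median of the list was -0.036 without *Gtpbp1* replicate 3, -0.0042 without *Gtpbp2* replicate 1 and 0.095 with sex as a covariate.

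The genes that did differ begin with the mutated ones. *Gtpbp2* stood at 109, 100.5 and 104 CPM in the *Gtpbp1* mutants, at 65.5, 75.4 and 72.7 in the *Gtpbp2* mutants and at 85.9, 74.02 and 88.1 in B6J. By CPM the *Gtpbp1* mutants were the highest of the 3 genotypes with no overlap, and the *Gtpbp2* mutants overlapped B6J. By TPM, which corrects for transcript length, *Gtpbp2* stood at 139, 160 and 162, at 127, 145 and 151 and at 114, 91.7 and 99.0. On that scale the mutants overlapped, and all libraries of both lay above B6J. By counts the log2 fold change of *Gtpbp2* between the mutants was 0.55 (95% interval 0.38 to 0.73, adjusted p 0.036). This joins a log2 fold change of 0.34 in *Gtpbp1* mutants against B6J and of -0.22 in *Gtpbp2* mutants against B6J. *Gtpbp1* stood at 43.99, 41.7 and 43.9 CPM in the *Gtpbp1* mutants, at 58.6, 72.1 and 65.7 in the *Gtpbp2* mutants and at 70.96, 77.8 and 66.7 in B6J. By CPM the *Gtpbp1* mutants were lowest with no overlap, but the difference between the mutants missed the threshold (log2 fold change -0.60, adjusted p 0.0502). By TPM *Gtpbp1* stood at 34.5, 35.1 and 41.1, at 40.3, 43.2 and 39.9 and at 43.5, 38.4 and 40.4. On that scale the *Gtpbp1* mutants overlapped both other genotypes. *Gtpbp1* passed in 5 alternatives, which were upper quartile scaling, no filter, all 9 RNA libraries, DESeq2 and leaving out *Gtpbp2* replicate 1 (log2 fold change then -0.67), and in no other. *Gtpbp2* did not pass when any 1 of the 6 libraries was left out, with sex as a covariate or with a replicate block (adjusted p over all alternatives 5.01e-06 to 0.999). With an offset for transcript length the log2 fold change of *Gtpbp2* was 0.11, also short of the threshold.

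Behind these totals the isoforms of *Gtpbp2* moved apart. *Gtpbp2*-201, which codes for the protein, stood at 49.99, 41.9 and 46.4 TPM in the *Gtpbp1* mutants, at 18.2, 23.5 and 22.5 in the *Gtpbp2* mutants and at 31.3, 29.6 and 34.2 in B6J. *Gtpbp2*-212, annotated as a retained intron, stood at 13.6, 11.9 and 10.1, at 24.6, 22.3 and 21.2 and at 7.41, 9.46 and 5.03 TPM. The coding transcript was highest in the *Gtpbp1* mutants and lowest in the mice with the *Gtpbp2* mutation, the transcript with intron sequence had the reverse order between the mutants, and neither overlapped between them. A further transcript annotated as a retained intron, *Gtpbp2*-214, stood at 10.6, 15 and 12.1 TPM in the *Gtpbp1* mutants and at 17.5, 19.95 and 17.8 in the *Gtpbp2* mutants. As single transcripts none passed (unadjusted p 8.44e-05 for *Gtpbp2*-201, 0.00172 for *Gtpbp2*-212 and 0.0184 for *Gtpbp2*-214). As a gene *Gtpbp2* passed the test of transcript usage, which asks whether the transcripts of a gene change in different proportions (adjusted p 0.0225), and again when a transcript had to have at least 1 count in each of the 6 libraries (0.0129), a filter chosen after seeing the data. It did not pass without *Gtpbp2* replicate 2 or with a replicate block. The share of *Gtpbp2*-201 in the TPM of the gene was 15.1 points higher in the *Gtpbp1* mutants on average, and the share of *Gtpbp2*-212 changed by -8.43 points.

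The first exon of *Gtpbp2*-212 begins inside intron 6, so the sequence of that intron is shown. The nmf205 mutation is known as a point mutation in the splice donor site of intron 6. Exon 6 ends at 46165629 on chromosome 17 and exon 7 begins at 46165778, and the 148 bases of the intron lie between them. *Gtpbp2*-212 starts at 46165696 and holds the last 82 bases of the intron, in capitals here, joined to exon 7. The window chr17:46165610-46165797 of GRCm38, plus strand, holds the intron with 20 bases of exon on each side, from the reference genome of B6J and thus without the mutation.
Gtpbp2 intron 6: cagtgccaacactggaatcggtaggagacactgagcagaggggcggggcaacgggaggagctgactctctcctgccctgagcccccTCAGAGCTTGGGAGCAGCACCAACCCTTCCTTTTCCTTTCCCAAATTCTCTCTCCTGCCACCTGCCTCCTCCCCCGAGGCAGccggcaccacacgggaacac
Values per transcript do not show which bases were read, so neither the mutated base nor a read across the exon 6 border was seen.

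The transcripts of *Gtpbp1* gave a weaker picture, and its usage test did not pass (unadjusted p 0.209, adjusted p 1). *Gtpbp1*-201, the full coding transcript, stood at 21.01, 19.95 and 20.9 TPM in the *Gtpbp1* mutants and at 28.1, 35.9 and 32.03 in the *Gtpbp2* mutants. *Gtpbp1*-207, a short transcript annotated as a retained intron, stood at 10.4, 9.49 and 12.8 and at 4.72, 4.91 and 4.56 TPM. It made up 30.1, 27.05 and 31.04% of the TPM of the gene in the *Gtpbp1* mutants and 11.7, 11.4 and 11.4% in the *Gtpbp2* mutants. The coding transcript was lower and the short one higher in every *Gtpbp1* mutant, yet neither passed (unadjusted p 0.000858 and 0.0332). Reads of exons outside the replaced part are still counted, and the cassette itself is not in the annotation. The lincRNA *Gm26884*, which overlaps the 5' end of *Gtpbp1*, stood at 2.19, 2.02 and 2.87 CPM in the *Gtpbp1* mutants, at 0.32, 0.345 and 0.281 in the *Gtpbp2* mutants and at 0.149, 0.216 and 0.576 in B6J. It was high only where *Gtpbp1* was mutated, 7.42-fold above the *Gtpbp2* mutants (adjusted p 0.00267), and the *Gtpbp2* mutants overlapped B6J. *Gm26884* passed in 14 of 16 alternatives, and not with limma on TPM. Over all alternatives its highest adjusted p was 0.116 and its lowest log2 fold change 1.53. It shares 224 words of 31 bases with *Gtpbp1*, 5.46% of the words of that gene, and the library does not mark strands, so reads of the shared stretch cannot be told apart by gene. Of 76 genes tested within 1 Mb of *Gtpbp1*, 4 had an unadjusted p under 0.05 and *Gm26884* was the one that passed, and of 60 near *Gtpbp2* 1 had an unadjusted p under 0.05 and none passed in edgeR's test.

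**Figure D1:**
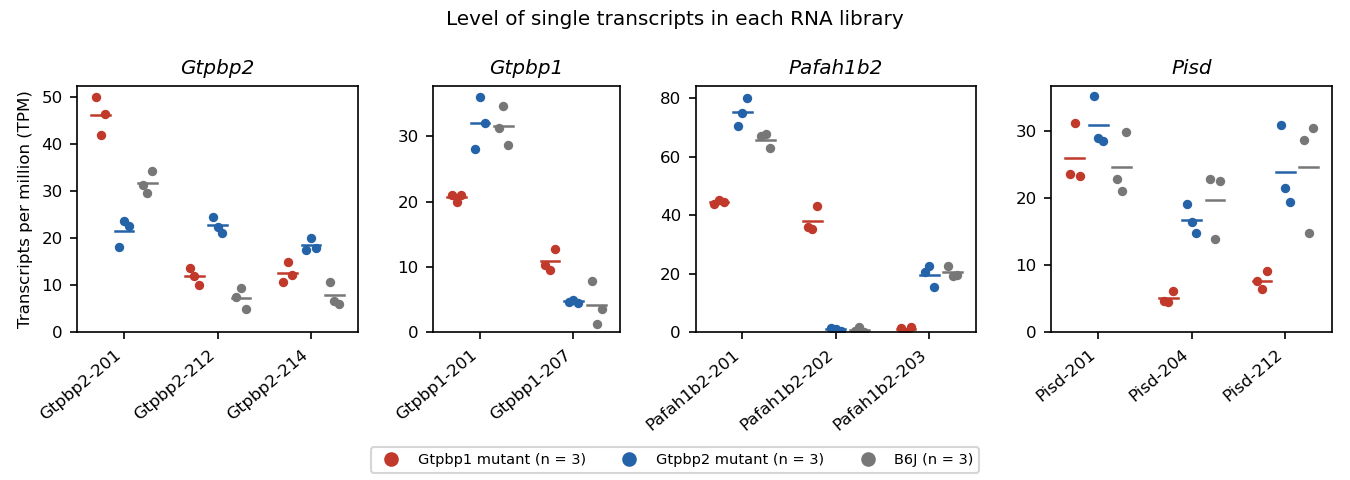
Transcript level in TPM (vertical axis) of single transcripts of *Gtpbp2*, *Gtpbp1*, *Pafah1b2* and *Pisd*, with a point for each library and a line at the mean of 3. *Pafah1b2*-202 lies between 35.4 and 43.0 TPM in the *Gtpbp1* mutants and at most 1.80 TPM in all other libraries, and *Gtpbp2*-201 and *Gtpbp2*-212 stand in opposite order in the mutants.

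The largest block of differences lay on chromosome 4, where 7 genes of a single segment passed, all lower in the *Gtpbp1* mutants. *Gm10600* stood at 1.03, 0.776 and 0.4701 CPM in the *Gtpbp1* mutants, at 27.2, 17.96 and 17.9 in the *Gtpbp2* mutants and at 20.7, 23.2 and 16.9 in B6J. *Gm17167* stood at 6.82, 6.52 and 4.65, at 50.97, 39.7 and 44.3 and at 49.2, 44.6 and 32.5 CPM. In both genes all 3 *Gtpbp1* mutants lay below every other library, and the *Gtpbp2* mutants overlapped B6J. The log2 fold change between the mutants was -4.77 for *Gm10600* (adjusted p 6.49e-05) and -2.90 for *Gm17167* (1.52e-05). *Gm5859*, with 0.2405, 0.369 and 0.366 CPM in the *Gtpbp1* mutants and 18.9, 14.7 and 14.7 in the *Gtpbp2* mutants, had the smallest adjusted p of all genes (6.51e-07). *Gm21541* had no count in any *Gtpbp1* library and 2.901, 2.699 and 2.53 CPM in the *Gtpbp2* mutants, against 4.86, 5.35 and 2.84 in B6J. With a floor of 3 counts per library it was at least 40.2-fold lower. *Gm17081* had 1, 0 and 2 counts in the *Gtpbp1* mutants and 88, 69 and 40 in the *Gtpbp2* mutants. *Gm13302* had 11, 17 and 2 counts against 127, 143 and 128. *Gm3883* was the least changed of the 7, with 6.56, 5.996 and 7.0 CPM in the *Gtpbp1* mutants and 13.7, 11.7 and 12.4 in the *Gtpbp2* mutants (adjusted p 0.036).

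The other genes of the segment were also lower in the *Gtpbp1* mutants. Between 41893388 and 42461867 on chromosome 4 of GRCm38, 27 genes are annotated and 16 were tested, and all 16 were lower in the *Gtpbp1* mutants, 13 with an unadjusted p under 0.05. These bounds were set by the outermost of the 7 genes that passed, so the 7 are part of the count. The 9 others were all lower too, 6 with an unadjusted p under 0.05, while *Fam205a3* (p 0.858) and *Gm21093* (p 0.209) were among the 3 without. Among the 6, *Gm13301* came close to the threshold (log2 fold change -4.64, adjusted p 0.0541). It passed with a length offset, all 9 RNA libraries, a replicate block, DESeq2, limma on TPM plus 0.5 and without *Gtpbp1* replicate 1. Over all 16 the median log2 fold change was -1.79, also when *Gm21541* was set at its bound. Summed over the 16 genes the level was 29.4, 27.0 and 24.7 CPM in the *Gtpbp1* mutants, 157, 116 and 125 in the *Gtpbp2* mutants and 137, 131 and 108 in B6J. The *Gtpbp1* mutants lay below all other libraries, and the *Gtpbp2* mutants overlapped B6J. Outside the segment no gene within 1 Mb passed in edgeR's test as first run. Just beyond the segment, *Gm2163* stood at 0.5903, 0.504 and 0.9403 CPM in the *Gtpbp1* mutants and 3.99, 2.49 and 2.19 in the *Gtpbp2* mutants (log2 fold change -2.10, adjusted p 0.0695), and passed with no filter, with all 9 RNA libraries and with DESeq2. On that side *Gm2564* (-1.87), *4930578G10Rik* (-1.40) and *Gm10593* (-0.94) were lower with an unadjusted p under 0.05. On the other side *Gm13307*, which starts just before the segment, had a log2 fold change of -2.23 (unadjusted p 0.0174) and *Cntfr*, a receptor subunit for ciliary neurotrophic factor, of -0.19 (unadjusted p 0.0454). Of 58 genes tested within 1 Mb of *Gm5859*, 45 were lower in the *Gtpbp1* mutants, 18 had an unadjusted p under 0.05, and the 6 that passed were all in the segment. On chromosome 4 as a whole, 74 of 1377 genes had an unadjusted p under 0.05. *Gm13302* did not pass without *Gtpbp1* replicate 1, *Gm17081* without *Gtpbp1* replicate 1 or 2, and *Gm3883* when any 1 of the 6 libraries was left out (adjusted p over all alternatives 5.88e-14 to 0.166, 3.16e-10 to 0.915 and 1.17e-07 to 0.915). *Gm17081* and *Gm3883* also did not pass with sex as a covariate, nor *Gm3883* with a replicate block. *Gm21541* and *Gm17081* could not be tested without a *Gtpbp2* library, since too few libraries with counts remained.

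These genes share most of their sequence with other genes, so a count for 1 of them is not a measurement of that gene alone. A word of 31 bases found in another gene was counted as shared. For *Gm5859* 93.3% of the words were shared, for *Gm10600* 95.4%, for *Gm13302* 90.9%, for *Gm17081* 95.8%, for *Gm3883* 97.1%, for *Gm21541* 97.1% and for *Gm17167* 72.5%. The median over all genes tested was 2.21%, and 2.78% of the genes shared more than 90%. *Gm21541* shares 677 words with the chemokine gene *Ccl21a* and 807 with *Gm13304*, and none of its 3 closest partners is among the other 6. A run of 369 bases is identical in 5 of the 7 genes, and its last 50 bases are shown in capitals with the 10 bases that follow in each transcript.
Gm5859: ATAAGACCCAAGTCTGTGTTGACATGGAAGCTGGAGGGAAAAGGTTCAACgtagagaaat
Gm17167: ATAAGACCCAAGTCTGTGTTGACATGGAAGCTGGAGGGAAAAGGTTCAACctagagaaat
Gm10600: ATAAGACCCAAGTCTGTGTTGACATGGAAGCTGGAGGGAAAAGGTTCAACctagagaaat
Gm13302: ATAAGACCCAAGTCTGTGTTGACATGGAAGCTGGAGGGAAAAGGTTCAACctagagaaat
Gm3883: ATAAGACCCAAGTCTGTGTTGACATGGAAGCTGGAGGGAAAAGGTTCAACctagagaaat
The sequences are those of the annotated transcripts, 5' to 3'. How far the 7 calls are independent of each other was not tested.

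**Figure D2:**
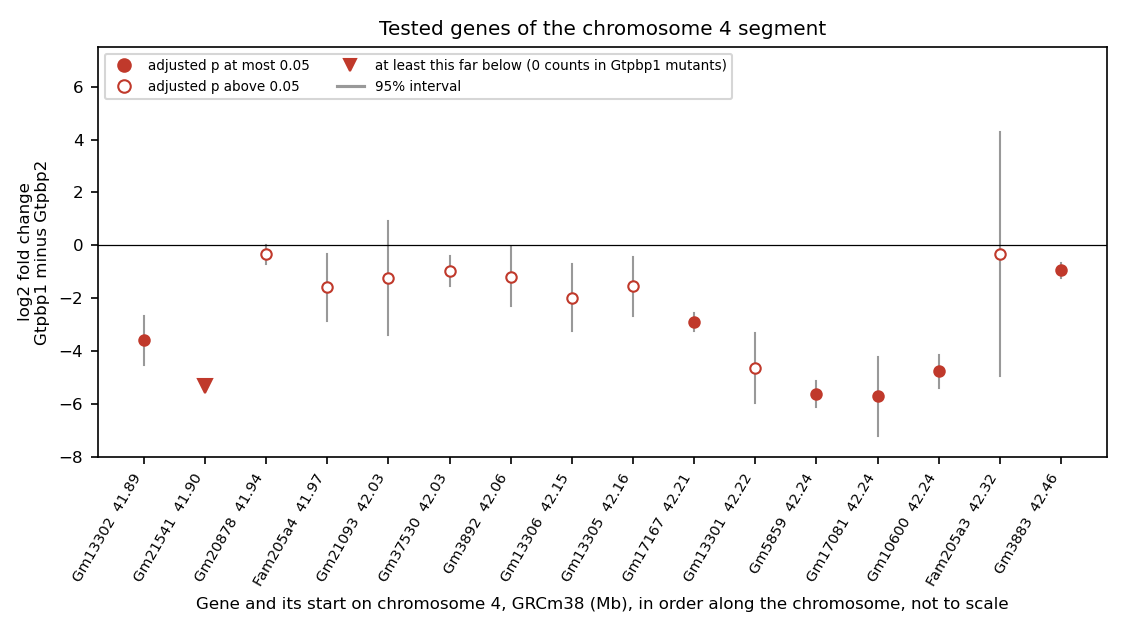
Log2 fold change (*Gtpbp1* minus *Gtpbp2* mutants, vertical axis) with its 95% interval for the 16 genes tested in the chromosome 4 segment, in order along the chromosome. All 16 points lie below 0, filled ones mark the 7 genes that passed, and the triangle is a bound for *Gm21541*, which had no counts in the *Gtpbp1* mutants.

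*Pisd* and its 2 pseudogenes form a second family. *Pisd* encodes the mitochondrial enzyme that makes phosphatidylethanolamine from phosphatidylserine (ENSMUSG00000023452.19, 32736301 to 32785646 on chromosome 5). It stood at 59.4, 54.5 and 60.7 CPM in the *Gtpbp1* mutants, at 118, 90.3 and 89.1 in the *Gtpbp2* mutants and at 121, 81.6 and 119.5 in B6J. *Pisd-ps1* stood at 10.2, 7.37 and 9.04, at 37.7, 27.5 and 25.4 and at 40.8, 22.4 and 48.9 CPM. *Pisd-ps2* stood at 3.41, 3.43 and 3.84, at 10.5, 8.02 and 7.48 and at 11.3, 8.05 and 11.2 CPM. In all 3 the *Gtpbp1* mutants were the lowest libraries and the *Gtpbp2* mutants overlapped B6J, and the adjusted p was 0.0406, 0.00267 and 0.0298. Within *Pisd* the difference lay in part of its transcripts. The main coding transcript *Pisd*-201 stood at 23.6, 31.1 and 23.2 TPM in the *Gtpbp1* mutants and 35.1, 28.9 and 28.5 in the *Gtpbp2* mutants, which overlap. *Pisd*-204, a shorter coding transcript, stood at 4.63, 4.47 and 6.09 and 19.2, 16.5 and 14.7, and *Pisd*-212, annotated as a retained intron, at 7.59, 6.38 and 9.13 and 30.9, 21.4 and 19.4. These do not overlap (unadjusted p 0.000116 and 0.000133), but the usage test of *Pisd* did not pass (unadjusted p 0.0576, adjusted p 1). It passed with at least 1 count in each library (adjusted p 0.0149), the filter chosen after seeing the data.

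*Pisd* and *Pisd-ps2* did not pass when any 1 of the *Gtpbp1* replicates or *Gtpbp2* replicate 2 was left out (adjusted p over all alternatives 1.52e-07 to 0.998 for *Pisd* and 2.68e-08 to 0.915 for *Pisd-ps2*). With sex as a covariate none of the 3 passed. *Pisd* and *Pisd-ps1* also did not pass with all 9 RNA libraries in the model (*Pisd-ps1* over all alternatives 5.7e-20 to 0.397), nor *Pisd-ps2* with a replicate block. With a length offset and with limma on TPM neither *Pisd* nor *Pisd-ps2* passed. *Pisd* was also lost with filterByExpr, a filter of edgeR, and with protein-coding transcripts only. It passed in 6 of 17 alternatives, with log2 fold changes from -0.85 to -0.33, against -0.77 as first run. The 3 genes share some sequence. Of the 6013 words of 31 bases in *Pisd*, 386 are also in *Pisd-ps1* and 379 in *Pisd-ps2*, and 1132 are in *Gm20671*. Words found in any other gene made up 22.5% of *Pisd*, 27.7% of *Pisd-ps1* and 38.5% of *Pisd-ps2*. An 81-base run of the coding sequence of *Pisd*-201 (bases 431 to 511 of 2183) is identical in the 3 main transcripts and is shown in capitals with 10 bases on each side.
Pisd-201: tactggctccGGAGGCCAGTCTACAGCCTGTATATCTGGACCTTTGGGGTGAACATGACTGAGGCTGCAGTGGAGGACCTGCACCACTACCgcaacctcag
Pisd-ps1-201: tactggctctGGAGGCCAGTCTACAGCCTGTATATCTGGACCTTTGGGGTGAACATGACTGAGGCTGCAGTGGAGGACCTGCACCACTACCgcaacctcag
Pisd-ps2-201: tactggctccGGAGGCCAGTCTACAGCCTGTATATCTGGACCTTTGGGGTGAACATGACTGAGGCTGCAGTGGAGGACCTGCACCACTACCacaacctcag
The genes lie on 3 chromosomes, and near each of them the other genes were little different. Of the neighbours within 1 Mb, 1 of 33 at *Pisd*, 2 of 31 at *Pisd-ps1* and 1 of 11 at *Pisd-ps2* had an unadjusted p under 0.05, and none passed in edgeR's test.

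*Pafah1b2* (ENSMUSG00000003131.7, chromosome 9, 45962859 to 46012690), which encodes a catalytic subunit of a platelet-activating factor acetylhydrolase of the brain, differed in isoform and, by CPM, in level. It stood at 147, 151 and 149.5 CPM in the *Gtpbp1* mutants, at 235, 249 and 267 in the *Gtpbp2* mutants and at 247, 254 and 235 in B6J. The *Gtpbp1* mutants were lowest, and the *Gtpbp2* mutants overlapped B6J (log2 fold change between the mutants -0.75, 95% interval -0.91 to -0.59, adjusted p 0.00228). By TPM the gene stood at 83.2, 84.2 and 91.7, at 95.2, 100.7 and 101.5 and at 93.1, 99.5 and 86.3. On that scale the mutants still did not overlap, but the *Gtpbp1* mutants overlapped B6J. *Pafah1b2*-201, the long coding transcript of 6873 bases, stood at 43.8, 45.1 and 44.6 TPM in the *Gtpbp1* mutants, at 70.3, 74.97 and 80.1 in the *Gtpbp2* mutants and at 66.8, 67.6 and 62.9 in B6J. *Pafah1b2*-202, a coding transcript of 453 bases, stood at 35.9, 35.4 and 42.97, at 1.51, 1.32 and 0.609 and at 0.4301, 1.799 and 0 TPM. *Pafah1b2*-203, of 794 bases, stood at 1.42, 0.244 and 1.93, at 20.7, 22.5 and 15.5 and at 22.6, 19.3 and 19.6 TPM. So the shortest of these transcripts was abundant in the *Gtpbp1* mutants alone, the other 2 were lower there than in every other library, and the *Gtpbp2* mutants lay near B6J in all 3. *Pafah1b2*-202 made up 43.2, 42.03 and 46.9% of the TPM of the gene in the *Gtpbp1* mutants and 1.58, 1.31 and 0.599% in the *Gtpbp2* mutants. Transcript usage of *Pafah1b2* passed with an adjusted p of 8.82e-06, the smallest of all genes beside *Adamts10*. It also passed when any 1 of the 6 libraries was left out and with at least 1 count in each library (adjusted p 2.24e-07). With an offset for transcript length, the log2 fold change of the gene was -0.21 and did not pass (adjusted p 0.999, over all alternatives 8.31e-15 to 0.999), and neither did it with sex as a covariate.

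*Ide*, which encodes the insulin-degrading enzyme (ENSMUSG00000056999.14, chromosome 19, 37268743 to 37337852), rose in the *Gtpbp1* mutants. It stood at 173, 176 and 206 CPM in the *Gtpbp1* mutants, at 78.3, 87.6 and 88.2 in the *Gtpbp2* mutants and at 100.2, 107 and 98.97 in B6J. The *Gtpbp1* mutants were highest and the *Gtpbp2* mutants lowest, with no overlap between any of the 3 genotypes, a 2.18-fold difference between the mutants (adjusted p 0.00025). Against B6J the log2 fold change was 0.86 in the *Gtpbp1* mutants and -0.27 in the *Gtpbp2* mutants. The main coding transcript *Ide*-201 carried it, with 76.2, 77.7 and 91.2 TPM in the *Gtpbp1* mutants and 34.4, 39.2 and 38.8 in the *Gtpbp2* mutants. *Ide* passed in all 17 alternative settings, with log2 fold changes from 1.04 to 1.29. Its neighbours on chromosome 19 leaned the same way, and of 24 tested within 1 Mb 18 were higher and 5 had an unadjusted p under 0.05, although none passed in edgeR's test. Among the 5, *Fgfbp3*, which encodes a binding protein of fibroblast growth factors, stood at 10.4, 7.97 and 7.71 CPM in the *Gtpbp1* mutants and 4.46, 4.46 and 3.09 in the *Gtpbp2* mutants (log2 fold change 1.12). *Rbp4*, a retinol carrier, had a log2 fold change of 0.67, *Btaf1*, a regulator of the TATA-binding protein, of 0.59, and *Myof*, the membrane protein myoferlin, of 0.36. *Btaf1* passed with a replicate block and *Fgfbp3* with no filter, and both with DESeq2. *Vrtn* (chromosome 12, 84641019 to 84651455), a gene known for its effect on the number of vertebrae, was nearly silent outside the *Gtpbp1* mutants, with 87, 58 and 76 counts in the *Gtpbp1* mutants, 7, 5 and 2 in the *Gtpbp2* mutants and 0 in the 3 B6J libraries. It was 17.5-fold higher than in the *Gtpbp2* mutants (log2 fold change 4.13, adjusted p 0.0062). *Vrtn* passed in 12 of 17 alternatives, and its lowest log2 fold change among them was 1.12. It did not pass without *Gtpbp1* replicate 1 (adjusted p 0.0681, over all alternatives 1.96e-10 to 0.999). It was also lost with a length offset, with protein-coding transcripts only and with limma on TPM. By TPM the mutants came close, with 0.665 in *Gtpbp1* replicate 2 and 0.619 in *Gtpbp2* replicate 1.

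**Figure D3:**
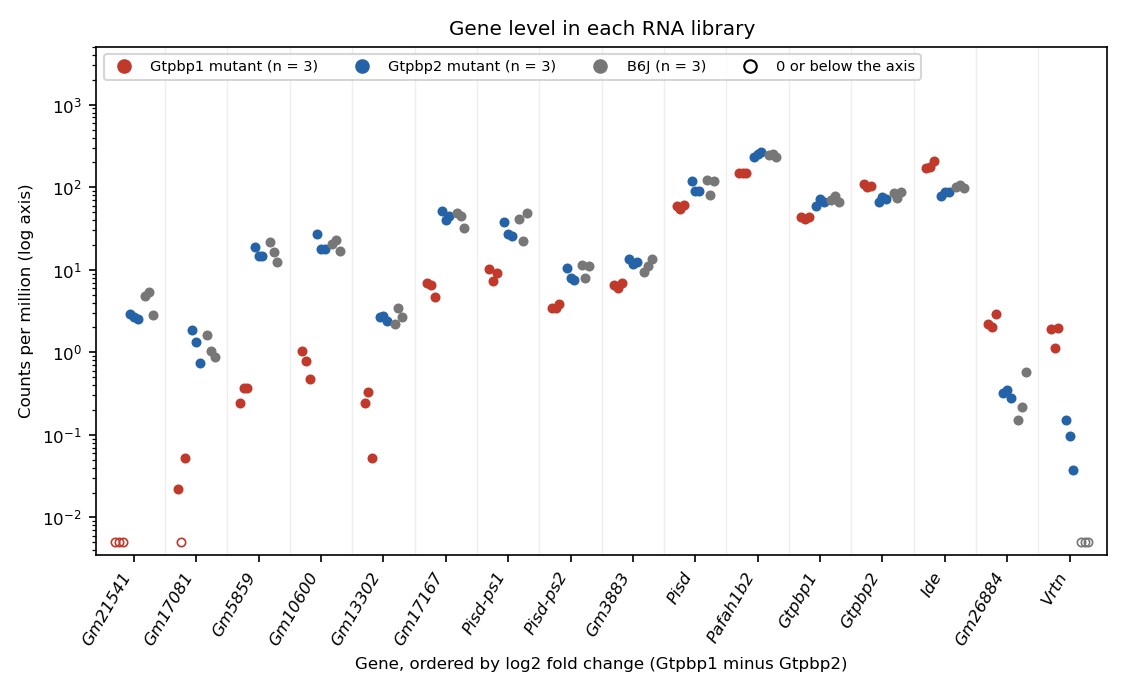
Level in CPM (log vertical axis) of the 15 genes that passed and of *Gtpbp1*, with a point for each library of *Gtpbp1* mutants, *Gtpbp2* mutants and B6J. In each gene the points of the 2 mutants do not overlap, and in all but *Ide* and *Vrtn* the *Gtpbp2* mutants overlap B6J.

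Ribosome footprints, from other libraries of the same genotypes, gave a partial view of these genes. No gene of 14142 passed between the mutants in edgeR's test (0%), while 1523 (10.8%) had an unadjusted p under 0.05 and DESeq2 gave 100. Without *Gtpbp2* replicate 3 of the footprints, 33 genes passed. Of the 15 genes that passed in RNA, 4 could be tested in footprints. The pseudogenes, *Gm17167* and *Gm26884* had no entry in these counts on coding sequences, so their footprints were not measured. *Gm10600*, *Gm21541* and *Vrtn* had too few footprints. For *Ide* the footprints were 258, 235 and 138 CPM in the *Gtpbp1* mutants and 135, 108 and 93.7 in the *Gtpbp2* mutants, with no overlap (log2 fold change 0.91, unadjusted p 0.00231, adjusted p 0.247). For *Gtpbp2* they were 36.2, 43.3 and 58.3 and 28.9, 26.4 and 7.54 (1.16, unadjusted p 0.0232). *Pafah1b2* and *Pisd* had the direction of their RNA, with log2 fold changes of -0.23 and -0.30 (unadjusted p 0.385 and 0.41). For *Gtpbp1* the footprints were 31.99, 25.5 and 35.6 CPM in the *Gtpbp1* mutants and 79.3, 66.8 and 62.1 in the *Gtpbp2* mutants, which do not overlap (-1.16, unadjusted p 6.32e-05).

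The protein-coding genes next to the threshold were picked for their small p alone. *Slc2a1*, the glucose transporter of the blood-brain barrier, stood at 74.1, 74.4 and 79.8 CPM in the *Gtpbp1* mutants, at 104, 101 and 107 in the *Gtpbp2* mutants and at 80.5, 87.3 and 69.9 in B6J (adjusted p between the mutants 0.0695). *Fam107b*, a heat shock inducible gene, stood at 167, 171 and 171, at 131, 128 and 127 and at 166, 189 and 229 CPM (adjusted p 0.0769). Here it was the *Gtpbp2* mutants that stood apart from both other genotypes, in *Slc2a1* above and in *Fam107b* below every one of their libraries. *Mobp*, a component of myelin, stood at 898, 935 and 866, at 1512, 1128 and 1382 and at 1373, 1245 and 1433 CPM (adjusted p 0.279). The *Gtpbp1* mutants were lowest. *Thbs1*, a secreted matrix protein (log2 fold change 0.68), *Colec12*, a scavenger receptor (0.43), and *Arntl*, a transcription factor of the circadian clock (0.37), were higher in the *Gtpbp1* mutants with adjusted p of 0.132, 0.318 and 0.361. With no filter and with DESeq2, *Slc2a1*, *Fam107b*, *Mobp* and *Thbs1* passed.

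Among 32 lists of genes, markers of oligodendrocytes, the cells that form myelin, held the largest share of genes with an unadjusted p under 0.05. Summed over 14 markers the level was 8462, 8621 and 7381 TPM in the *Gtpbp1* mutants, 12189, 9228 and 10162 in the *Gtpbp2* mutants and 10320, 8959 and 10288 in B6J. Each *Gtpbp1* mutant was below each *Gtpbp2* mutant and below each B6J mouse, and the *Gtpbp2* mutants overlapped B6J. Of the 32 lists, 5 had sums that did not overlap between the mutants. All 14 were lower in the *Gtpbp1* mutants, with a median log2 fold change of -0.33, 8 had an unadjusted p under 0.05 where 3.57% of all genes did, and none passed in edgeR's test. *Mobp* and *Cldn11* passed with no filter and with DESeq2. The direction of all 14 held under each scaling tried, while 2 of the 14 were higher without *Gtpbp1* replicate 3 and 1 without *Gtpbp2* replicate 3. The most abundant marker, *Mbp*, which encodes myelin basic protein, stood at 3635, 3343 and 2697 CPM in the *Gtpbp1* mutants and 5213, 3641 and 4200 in the *Gtpbp2* mutants. *Mog*, a protein of the outer myelin surface, stood at 122, 125 and 98.96 and 182, 138 and 159.6, and *Cldn11*, the claudin of myelin, at 181, 170.4 and 140.4 and 262, 202 and 230.2. None of the markers was at 0. In bulk tissue, fewer cells of a type and less RNA per cell cannot be told apart.

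Genes of cholesterol synthesis, which oligodendrocytes use at a high rate, leaned the same way. The 22 genes summed to 813, 920.05 and 819 TPM in the *Gtpbp1* mutants, 939, 947 and 1086 in the *Gtpbp2* mutants and 1259, 1211 and 1235 in B6J. The 3 genotypes did not overlap, with the *Gtpbp1* mutants lowest and B6J highest. Of the 22, 20 were lower in the *Gtpbp1* mutants (median -0.19), or 19 with a length offset, 7 had an unadjusted p under 0.05, all lower, and none passed in edgeR's test. The 7 include *Hmgcs1*, the synthase at the entry of the pathway (log2 fold change -0.41), and *Fdps*, the synthase of farnesyl diphosphate (-0.38). The count of 7 became 3 without *Gtpbp1* replicate 3 and 4 without *Gtpbp2* replicate 3. The oligodendrocyte markers were also lower in the *Gtpbp1* mutants, but the sums of these lists did not move together throughout. *Gtpbp2* replicate 1 had the highest oligodendrocyte sum, 12189 TPM, and the lowest cholesterol sum of its genotype, 939 TPM. The *Gtpbp2* mutants overlapped B6J in the oligodendrocyte sum and lay below it in the cholesterol sum. The part of oligodendrocytes in the cholesterol list was not tested. Genes of interferon and innate immunity leaned the other way. The 18 genes summed to 796, 907 and 844 TPM in the *Gtpbp1* mutants, 659, 778 and 740.5 in the *Gtpbp2* mutants and 449, 485 and 450.1 in B6J. Again the 3 genotypes did not overlap, now with the *Gtpbp1* mutants highest. Of the 18, 17 were higher in the *Gtpbp1* mutants (median 0.20), 3 had an unadjusted p under 0.05 and none passed. The 3 were *Bst2*, *Irf7* and *Ifit3*, and the most abundant gene was *B2m*, which encodes the light chain of class I major histocompatibility complexes. The count of 3 became 6 without *Gtpbp1* replicate 1, 1 without *Gtpbp1* replicate 2 or *Gtpbp1* replicate 3, and 0 in edgeR's test with sex as a covariate.

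Markers of tissue that borders the cerebellum varied between mice. The 10 markers of choroid plexus, which secretes cerebrospinal fluid, summed to 3797, 2843 and 823 TPM in the *Gtpbp1* mutants and 156, 2312 and 1517 in the *Gtpbp2* mutants, mostly from *Ttr*, with none at 0. *Gtpbp1* replicate 3 and *Gtpbp2* replicate 1 were low and the mutants overlapped, so the median log2 fold change of 0.79 rests on single libraries. It was 0.29 without *Gtpbp2* replicate 1, 0.42 without *Gtpbp1* replicate 1, 1.42 without *Gtpbp2* replicate 2 and -0.68 with sex as a covariate. The 10 blood markers summed to 8204, 7167 and 9226 TPM in the *Gtpbp1* mutants and 1509, 7158 and 4022 in the *Gtpbp2* mutants, mostly from the globin gene *Hbb-bs*. The *Gtpbp1* mutants were above all *Gtpbp2* mutants, by little for *Gtpbp2* replicate 2, and the median was 0.86, or 0.50 and 1.51 without *Gtpbp2* replicates 1 and 2. Of the 11 markers of meninges and fibroblasts 9 were higher in the *Gtpbp1* mutants (median 0.26, or 0.078 without *Gtpbp2* replicate 1), and 4 had an unadjusted p under 0.05, among them *Ogn*, a small proteoglycan, with 27.02, 30.9 and 29.2 and 13.3, 20.9 and 22.4 CPM. The count of 4 was 6 without *Gtpbp2* replicate 2, where 1 passed, and 2 when either *Gtpbp1* replicate 1 or 2 or *Gtpbp2* replicate 1 or 3 was left out. With all libraries no marker of these 3 lists passed in edgeR's test, and no marker of choroid plexus or blood had an unadjusted p under 0.05. Of the blood markers 6 did without *Gtpbp2* replicate 2 and 3 without *Gtpbp1* replicate 1. Of 18 immediate early genes, which respond to neuronal activity, 16 were lower in the *Gtpbp1* mutants (median -0.37), 15 with upper quartile scaling and 12 with sex as a covariate (median -0.098). The median was -0.59 without *Gtpbp1* replicate 3, -0.24 without *Gtpbp1* replicate 2 and -0.16 without *Gtpbp2* replicate 2, and of the 18 only *Egr3* had an unadjusted p under 0.05, or 4 genes without *Gtpbp2* replicate 3.

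Few markers of the neurons, other glia and vessels of the cerebellum had a small p between the mutants. No marker had an unadjusted p under 0.05 among the 16 of granule neurons (median log2 fold change -0.029), the 13 of Purkinje cells (0.10), the 14 of astrocytes and Bergmann glia (0.12) and the 14 of endothelial and mural cells (-0.074). Without *Gtpbp2* replicate 1, however, 13 of the 14 endothelial and mural markers were lower (median -0.19) and 6 had an unadjusted p under 0.05. Without *Gtpbp2* replicate 3, 9 of the 14 were higher (median 0.076). The median was 0.023 without *Gtpbp2* replicate 2 and 0.017 with sex as a covariate. The other medians moved as well, for astrocytes to 0.024 without *Gtpbp1* replicate 1, for Purkinje cells to 0.032 without *Gtpbp2* replicate 3, and for granule neurons to -0.095 without *Gtpbp1* replicate 3 and 0.091 with sex as a covariate. Of 14 microglia markers (median 0.060) *Ctss*, which encodes the lysosomal protease cathepsin S, had an unadjusted p of 0.00159, with 55.8, 48.5 and 45.2 CPM in the *Gtpbp1* mutants and 37.6, 38.5 and 38.7 in the *Gtpbp2* mutants, and did not pass. The median of this list was -0.018 without *Gtpbp1* replicate 1 and -0.093 with sex as a covariate, where no marker had an unadjusted p under 0.05. No member had an unadjusted p under 0.05 among the 12 tested markers of other brain regions (0.37), the 8 of skeletal muscle and bone (-0.0044) and the 18 genes of proliferation (0.074). The median of the other brain regions turned to -0.28 without *Gtpbp1* replicate 2 and -0.33 with sex as a covariate. That of muscle and bone was -0.20 without *Gtpbp1* replicate 2, 0.22 without *Gtpbp2* replicate 2 and -0.45 with sex, and all 8 were lower without *Gtpbp2* replicate 1. That of proliferation turned to -0.092 without *Gtpbp2* replicate 1.

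Genes of translation and RNA turnover were bounded closely. All 79 cytosolic ribosomal protein genes were within 2-fold between the mutants, 43 higher and 36 lower (median 0.017), and only *Rpl10a* had an unadjusted p under 0.05. The direction count was 61 higher and 18 lower without *Gtpbp1* replicate 3, 31 and 48 without *Gtpbp1* replicate 1, and 15 and 64 with sex as a covariate, where 6 had an unadjusted p under 0.05. The 32 initiation and elongation factors (0.025), 29 genes of the mTOR pathway (-0.0067), 27 tested genes of nonsense-mediated decay and the exosome (0.031) and 15 SR splicing factors (-0.0076) were all within 2-fold too, with none at an unadjusted p under 0.05. Some of these medians changed sign. Without *Gtpbp2* replicate 1 that of the initiation and elongation factors was -0.010, with 11 higher and 21 lower. That of the SR factors was -0.042 without *Gtpbp2* replicate 1 and 0.033 without *Gtpbp1* replicate 1, and that of the mTOR pathway 0.021 with sex as a covariate. Among 22 factors of ribosome rescue and quality control (median 0.036), the 2 with an unadjusted p under 0.05 were *Gtpbp1* and *Gtpbp2* themselves. Of 13 genes related to *Pisd* and *Pafah1b2* in phospholipid metabolism (median -0.024), only *Pisd* and *Pafah1b2* had an unadjusted p under 0.05, and both passed. Of 20 genes of apoptosis and p53 (0.0038) 1 did, *Mcl1*, an inhibitor of apoptosis, and of 44 nuclear genes of oxidative phosphorylation (0.0031) none did, or 5 without *Gtpbp2* replicate 3. All 13 coding genes of the mitochondrial genome were lower in the *Gtpbp1* mutants (median -0.11), 11 of them with a length offset and 9 with sex as a covariate. Their smallest p belonged to *mt-Atp8*, a subunit of ATP synthase, with 113, 164 and 139 CPM in the *Gtpbp1* mutants and 193, 195 and 185 in the *Gtpbp2* mutants (log2 fold change -0.47, unadjusted p 0.00222). Of 10 sex-linked genes, 4 Y-linked ones had an unadjusted p under 0.05, all from the 2 male *Gtpbp1* mutants. On the Y chromosome 4 of 22 genes did, and on the X chromosome 27 of 762.

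**Figure D4:**
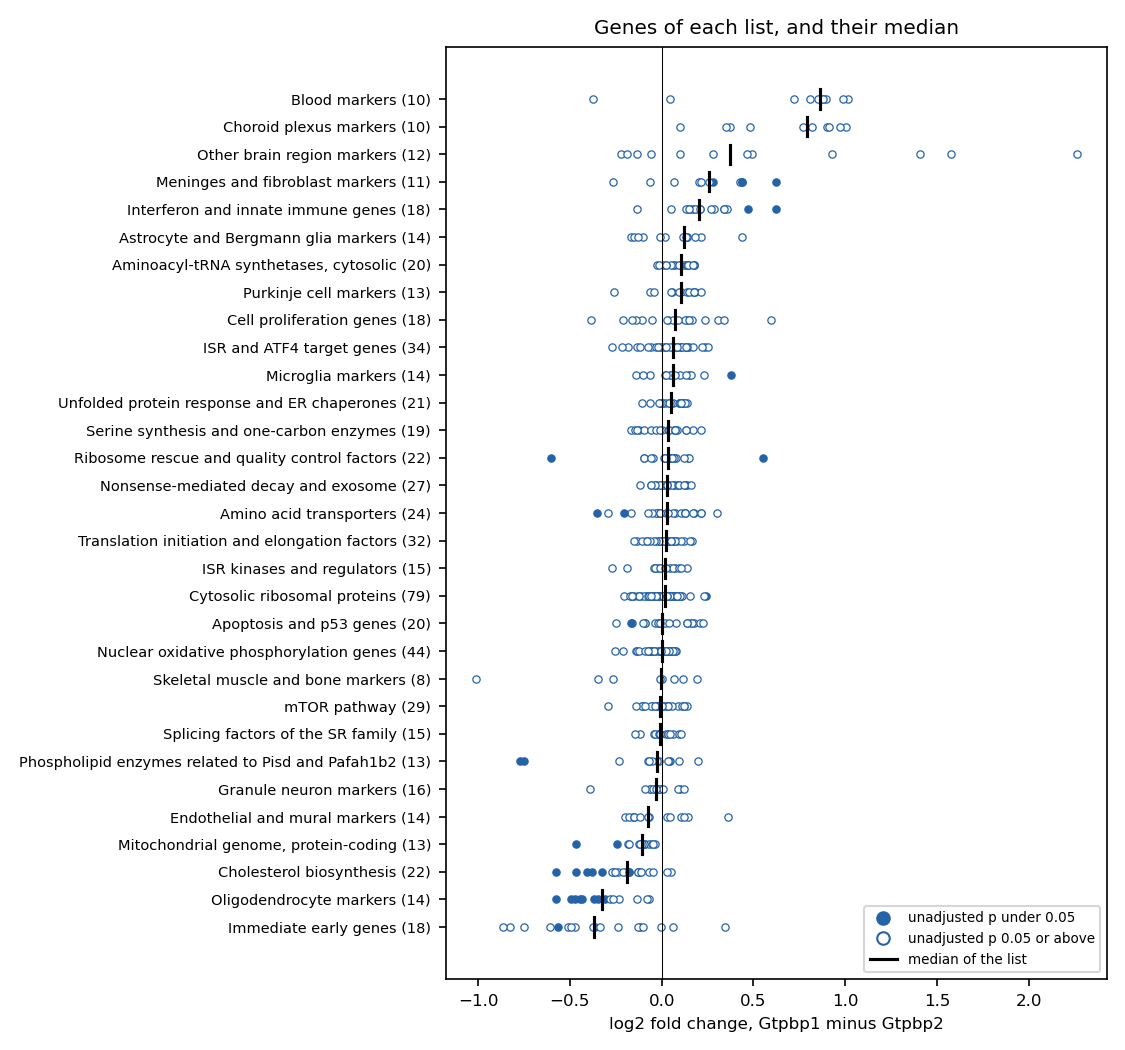
Log2 fold change (*Gtpbp1* minus *Gtpbp2* mutants, horizontal axis) of every tested gene of each list, with the number tested in brackets and a bar at the median. Oligodendrocyte markers lie below 0 in all 14 cases, and blood and choroid plexus markers lie mostly above 0 with no gene at an unadjusted p under 0.05; the choroid plexus median turns to -0.68 with sex as a covariate.

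By annotated class, pseudogenes made up 6 of the 15 genes that passed. Of 1278 pseudogenes 6 passed, all lower in the *Gtpbp1* mutants, against 7 of 17288 protein-coding genes, 3 of them higher. A lincRNA, 1 of 1981, and a processed transcript, 1 of 538, also passed, while of 1507 antisense genes and 1865 TEC genes, whose annotation is provisional, none did in edgeR's test, with 49 and 45 at an unadjusted p under 0.05. These were 3.25% and 2.41% of their class, against 3.57% of all genes. The 6 pseudogenes are 4 of the chromosome 4 segment and the 2 of *Pisd*. Protein-coding genes were bounded within 2-fold in 80.1% of cases and had a median absolute log2 fold change of 0.10, pseudogenes in 24.4% and 0.33. The summed level of pseudogenes, 3.21%, 1.44% and 1.51% of TPM in the *Gtpbp1* mutants and 1.61%, 1.67% and 3.21% in the *Gtpbp2* mutants, had 1 high library in each mutant. In both it was *Gm28661*, a copy of the mitochondrial gene *mt-Co2*, with 14662 TPM in *Gtpbp1* replicate 1 and 20546 in *Gtpbp2* replicate 3 and at most 16.6 in the other 4. All 651 of its 31-base words are also in *mt-Co2*.

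The classes of transcripts had similar shares in the mutants. Retained introns made up 6.43%, 6.53% and 6.17% of TPM in the *Gtpbp1* mutants, 6.78%, 6.31% and 6.17% in the *Gtpbp2* mutants and 5.98%, 5.42% and 6.34% in B6J. Targets of nonsense-mediated decay made up 2.32%, 2.25% and 2.23% in the *Gtpbp1* mutants and 2.30%, 2.22% and 2.25% in the *Gtpbp2* mutants. Both shares overlapped between the mutants, as did those of all 9 classes (exact permutation test over 3 against 3 libraries, two-sided, p from 0.3 to 0.9, where 0.1 is the smallest it can give). Counted in place of TPM, a scale chosen after seeing the data, the share of lincRNA did not overlap, with 1.13%, 1.14% and 1.14% in the *Gtpbp1* mutants and 1.35%, 1.15% and 1.16% in the *Gtpbp2* mutants (p 0.1 by the same exact test). *Xist*, a lincRNA, was nearly absent from the 2 male *Gtpbp1* mutants. Without it, a change also made after seeing the data, the shares were 1.13%, 1.14% and 1.01% and 1.23%, 1.04% and 1.01%, and overlapped. Among 15211 transcripts with a retained intron none passed in edgeR's test, and 378 (2.49%) had an unadjusted p under 0.05, against 3.01% of all transcripts. Of the 378, 133 were higher and 245 lower in the *Gtpbp1* mutants, and over all transcripts these counts were 937 and 1184.

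Among single transcripts, 3 of 70389 (0.00426%) passed, and 2121 (3.01%) had an unadjusted p under 0.05. They were *Gm5859*-201 and *Gm17167*-201 of the chromosome 4 segment and *Ahdc1*-202, a coding transcript of a gene for a DNA-binding protein. *Ahdc1*-202 stood at 1.49, 1.52 and 1.98 TPM in the *Gtpbp1* mutants, near 0 in all *Gtpbp2* mutants and at 0, 1.56 and 1.54 in B6J (adjusted p 0.0411). B6J thus held both states, and the total of *Ahdc1* was bounded within 2-fold (log2 fold change -0.057). *Ahdc1*-202 did not pass when any 1 of the *Gtpbp2* replicates was left out (adjusted p 0.177 to 0.201). It was also lost without *Gtpbp1* replicate 1 or 2, with sex as a covariate and with a replicate block. DESeq2 gave 223 transcripts. The count of 3 was 6 without *Gtpbp1* replicate 3, and 0 in edgeR's test without *Gtpbp1* replicate 2 or any 1 of the *Gtpbp2* replicates, where at least 1829 transcripts had an unadjusted p under 0.05.

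Transcripts present in all libraries of 1 mutant and absent from the other were rare. With at least 5 counts in each library of 1 mutant and 0 in each of the other, there were 188 (0.267%), 71 only in the *Gtpbp1* mutants and 117 only in the *Gtpbp2* mutants. They belong to 183 genes, of which 157 were bounded within 2-fold in total and 1 passed. None passed in edgeR's test, and that all 188 had an unadjusted p under 0.05 follows from how they were picked. In B6J, 44 of the 71 and 76 of the 117 had 0 counts in some libraries and at least 5 in others. Such a switch between mice of the same genotype was seen for 11.6% of the tested transcripts in *Gtpbp1* mutants, 9.93% in *Gtpbp2* mutants and 22.2% in B6J. By class 105 of the 188 were protein-coding, 30 targets of nonsense-mediated decay and 28 retained introns.

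Transcript usage passed for 86 of 12991 genes (0.662%), and 603 had an unadjusted p under 0.05. Tested on simulated data, most calls of this test at a small change were false, so these 86 genes are weak evidence. Of the 86, 79 were bounded within 2-fold in total and 2 passed in total. In 71 of the 86 a transcript was absent from 1 mutant as above. The largest change in share had a median of 9.67 points, with 42 genes over 10 points and 27 under 5, and in 44 genes the 2 transcripts that changed most were both protein-coding. The 10 genes with the smallest p were *Adamts10*, *Pafah1b2*, *Ccdc43*, *Rinl*, *Tmem63b*, *Slc35e4*, *Smpx*, *Diaph3*, *Mpv17* and *Skap2*. In *Adamts10*, a secreted metalloprotease, the largest change of share was -1.94 points. When each transcript needed at least 1 count in each of the 6 libraries, 10 of 11454 genes passed, 5 of them shared with the 86, and of the 10 genes just named only *Pafah1b2* did. These 10 were *Pafah1b2*, *Gtpbp2*, *Pisd*, *Hnrnpll*, *Mdm4*, *Map6*, *Tpp1*, *Cdyl*, *Pdia6* and *Fyn*. In *Cdyl*, a chromatin corepressor, *Cdyl*-201 made up 75.6%, 83.0% and 67.4% of the gene in the *Gtpbp1* mutants and 49.4%, 20.3% and 26.5% in the *Gtpbp2* mutants, with no overlap (adjusted p 0.0479). In *Map6*, which stabilizes microtubules, *Map6*-201 made up 23.4%, 14.4% and 15.2% in the *Gtpbp1* mutants and 4.42%, 10.1% and 6.49% in the *Gtpbp2* mutants (adjusted p 0.0344). Both transcripts varied among B6J mice, with *Cdyl*-201 at 0, 3.59 and 5.14 TPM and *Map6*-201 at 0.0176, 4.80 and 4.66. Under the first filter neither gene passed without *Gtpbp2* replicate 2 or with a replicate block, nor *Map6* without *Gtpbp2* replicate 1. The count of 86 was 23, 15 and 42 without *Gtpbp2* replicates 1, 2 and 3, with 10, 7 and 9 of the first 86 among them. Without *Gtpbp1* replicates 1, 2 and 3 it was 86, 79 and 92, with 27, 29 and 35. Of the 10 genes with the smallest p *Pafah1b2*, *Rinl* and *Tmem63b* passed each time a *Gtpbp2* library was left out. Each time a *Gtpbp1* library was left out 9 of the 10 passed, and *Tmem63b* did not. Only *Pafah1b2* and *Rinl* of the 10 thus passed whichever library was left out. A transcript present in 1 mutant only is not tested once a library of that mutant is left out, since too few libraries with counts remain. As 71 of the 86 genes hold such a transcript, part of these losses can follow from the filter. The values do not carry the uncertainty with which reads were assigned to transcripts, so that part of the error is not in these tests.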

How the data were processed

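Cerebellar RNA libraries of 3 *Gtpbp1* and 3 *Gtpbp2* mutants were compared, with 3 B6J libraries and 9 footprint libraries as reference. The authors aligned the RNA reads to Gencode M20 with kallisto 0.42.4 and deposited estimated counts, which are not normalized, and TPM for each transcript. For footprints the authors removed ribosomal RNA with Bowtie2 2.2.3, mapped to mm10 with HISAT2 2.1.0 and deposited raw counts on coding sequences from featureCounts. Estimated counts were rounded after summing by gene. A feature needed 5 or more counts in 3 or more libraries of the 6 and was tested with edgeR 4.0.16 (R 4.3.3, TMM, quasi-likelihood test, robust, Benjamini-Hochberg at 0.05), and transcript usage with its diffSpliceDGE function. Intervals came from the same fit. Libraries held between 37794598 and 52114400 RNA counts and between 3630823 and 10442573 footprints, and the floor of 3 counts covers counting error only. Positions and sequences are from GENCODE M21 on GRCm38. Figures and shared words used Python 3.11.15, numpy 2.4.6 and matplotlib 3.10.9.

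The members and lists were chosen with earlier results of these data known. Named were the mutated genes, all genes that passed, most of the next 10 protein-coding genes, transcripts that passed, the 10 genes with the smallest p for usage, 12 stress genes, and in most of 32 lists the most abundant gene and that with the smallest p. *Slc43a2*, *Irf7*, *Ifit3*, *Fdps*, *Hmgcs1*, *Mog*, *Cldn11* and the genes of the stricter usage filter were named after their values were seen. Alternatives were DESeq2 1.42.0, limma 3.58.1 on TPM, upper quartile scaling, a length offset, other filters, all 9 RNA libraries, a replicate block, protein-coding transcripts, sex as a covariate and leaving out each library. Tested on simulated data, the gene test recovered most changes, while the transcript and usage tests recovered few small ones and called unchanged features, the usage test in most of its calls at the smaller size.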

Additional observations from a re-analysis of the deposited data

How the results depend on the processing

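The 15 genes that passed became 36 with no filter, 5 with protein-coding transcripts only, 46 with DESeq2 and 8 with limma on TPM plus 0.1. They became 9 to 17 when a library was left out. All 15 were among the 36 and the 46. With sex as a covariate *Pafah1b2*, *Pisd*, *Pisd-ps1*, *Pisd-ps2*, *Gtpbp2*, *Gm17081* and *Gm3883* did not pass. That fit sets *Gtpbp1* replicate 3 alone against the *Gtpbp2* mutants, so it cannot tell an effect of sex from the loss of replicates. Sex was not balanced, with 2 males among the *Gtpbp1* mutants and none among the *Gtpbp2* mutants. With upper quartile scaling, a length offset, filterByExpr, all 9 RNA libraries and limma on TPM plus 0.5 the count was between 10 and 16. The count of genes bounded within 2-fold was between 13050 and 16240. The 3 transcripts became 16 with no filter, 5 with all 9 libraries, 223 with DESeq2 and 6 with limma on TPM plus 0.1. They became 0 to 6 when a library was left out. The 86 genes of transcript usage became 137 with limma, 38 with at least 20 counts, 10 with at least 1 count in each library (chosen after seeing the data), and 15 to 92 when a library was left out. With limma 77 of the first 86 were among these, and 29 with at least 20 counts, 5 with at least 1 count in each library and 7 with a replicate block. Few were the same genes when a library was left out. A transcript present in 1 mutant only is no longer tested once a library of that mutant is left out, since too few libraries with counts remain. Of the 86 genes, 71 hold such a transcript, so part of this loss can follow from the filter, and how much was not tested. Without *Gtpbp1* replicates 1, 2 and 3, 86, 79 and 92 genes passed, of which 27, 29 and 35 were among the first 86, and without *Gtpbp2* replicates 1, 2 and 3 it was 10 of 23, 7 of 15 and 9 of 42. Of the 4 genes that passed in RNA and had footprints, 0 passed for footprints in edgeR's test and 1 with DESeq2. Of the transcript classes 0 were without overlap by TPM, 1 by estimated counts and 0 by estimated counts without *Xist* (both chosen after seeing the data). The causes were not tested. No direction of a called value reversed. Over all named genes and settings, 1640 values kept their side of the threshold or moved by less than the spread, 61 lost it, 25 gained it and 22 moved.

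Replicate numbers did not pair the libraries. After removing genotype means, the correlations of libraries of the same number were 0.245, -0.0866 and -0.0453, and only replicate 1 correlated best with its own number. With a replicate block, 15 genes, 0 transcripts and 7 genes of transcript usage passed. Of these 15 genes 12 were among the 15 first reported, without *Gtpbp2*, *Gm3883* and *Pisd-ps2*. With the block 16103 genes were bounded, and 0 of the 4 genes passed for footprints.

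The genes that could not be bounded were mainly those of low level. Sequencing depth was not varied, so how far it limits these genes and single transcripts of low level was not tested.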
